A study of Homo sapiens with 12 samples.

Results

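The 10 genes BCAT1, BCAT2, BCKDHA, BCKDHB, DBT, IVD, MCCC1, ACADSB, HIBCH and ALDH6A1 encode enzymes that break down the branched-chain amino acids leucine, isoleucine and valine. They were taken by name from the 57353 genes of the counts table, and each name was found once. MOLM-13 cells, an established human AML line that carries FLT3-ITD, an activating internal duplication in the receptor kinase FLT3, were profiled by poly-A RNA-seq in 12 libraries, 3 in each of 4 groups. The groups were vehicle in RPMI, 3 nM quizartinib (AC220, a FLT3 kinase inhibitor) in RPMI, vehicle in hBMSC-CM, and 3 nM quizartinib in hBMSC-CM, with 15 hr of treatment. The labels give the genotype of the cells in every group as wild type, and hBMSC-CM is regular medium mixed with medium conditioned by the human bone marrow stromal line HS-5. This is 1 cell line, and the labels do not say whether replicates were separate cultures. The study's reporting checklist calls all its replicates biological, without saying whether they were separate cultures. P-values therefore measure the spread between these libraries, which may be technical.

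Breakdown of the branched-chain amino acids starts with the removal of the amino group by a branched-chain aminotransferase, which is cytosolic for BCAT1 and mitochondrial for BCAT2. This first step is reversible, and BCAT1 has been studied in myeloid leukaemia. The resulting keto acids enter an irreversible step at the branched-chain keto acid dehydrogenase complex of the mitochondrion, which is switched off when the kinase BCKDK phosphorylates it and switched on when the phosphatase PPM1K removes the phosphate. After that step leucine, isoleucine and valine follow separate branches that end in acetyl-CoA, acetoacetate and propionyl-CoA.

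With quizartinib the aminotransferase genes of the entry step fell and 6 of the 7 later genes tested among the 10 rose, while 13 other enzymes of the pathway did not share one direction (5 higher, 5 lower in RPMI). Of all tested genes 40.1% were called higher and 39.2% lower in RPMI. In RPMI both aminotransferases and HIBCH fell, while the complex subunits BCKDHB and DBT and the branch enzymes IVD, MCCC1, ACADSB and ALDH6A1 rose. The changes ran from a 2.52-fold fall of BCAT1 to a 2.68-fold rise of ALDH6A1. In hBMSC-CM each of the 9 genes that could be tested changed in the direction it took in RPMI, with a point estimate closer to 0. The share of all tested genes that did so was not counted, so this cannot be called particular to these genes. Calls with quizartinib covered 79.3% of all tested genes in RPMI and 67.1% in hBMSC-CM. Outside the 10, the regulators BCKDK and PPM1K also kept their direction with a point estimate closer to 0, and the mitochondrial carrier SLC25A44 did not. The difference in response between the media passed the test for BCAT1, DBT, MCCC1, ACADSB and ALDH6A1. It also did so for 45.2% of all tested genes. Levels are relative to each library's total, and in such bulk samples fewer cells of a type and less RNA per cell cannot be told apart.

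Of the 10 genes, 9 passed the filter on low counts, which required an average of 1 or more both in raw counts and in CPM, the count relative to the library's total, and BCKDHA did not. CPM values here were scaled by TMM, which adjusts for differences in composition between libraries. In RPMI quizartinib raised 6 of the 9 tested genes and lowered 3, at an adjusted p under 0.05 in edgeR's quasi-likelihood test over 12998 genes. Among all tested genes 40.1% were called higher and 39.2% lower in that comparison. The median log2 fold change was 0.30 over the 9 genes and 0.02 over all genes. In hBMSC-CM quizartinib raised 6 and lowered 3 of the 9, against 33.4% of all genes called higher and 33.7% lower, with a median of 0.21 against 0.01. The split of all calls in hBMSC-CM depended on the scaling, with 49.8% of the calls higher under TMM, 62.8% with library size only and 60.0% with upper-quartile factors.

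**Figure D1:**
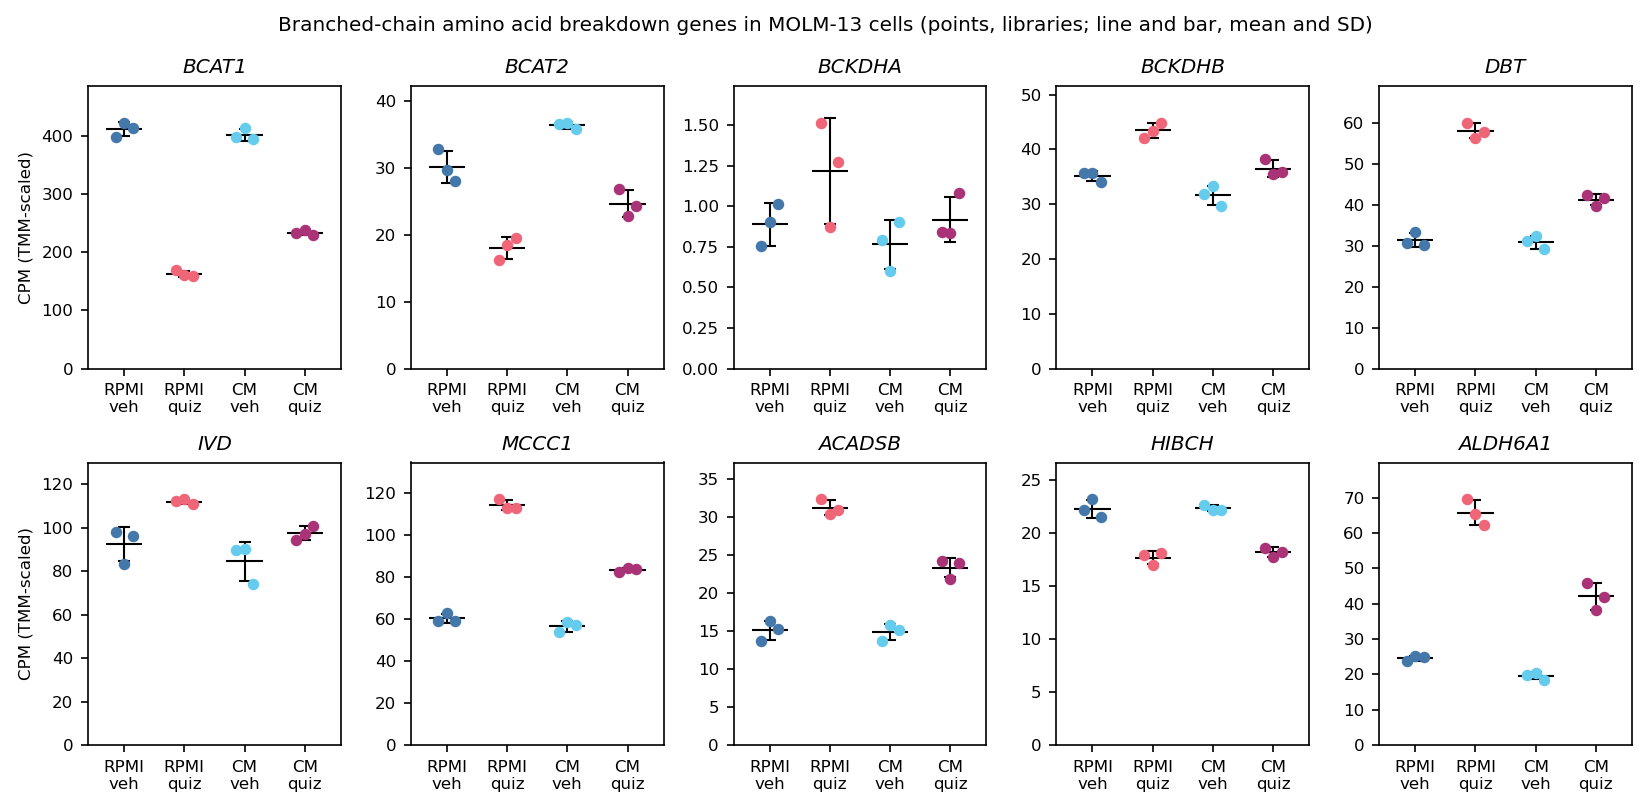
TMM-scaled CPM (vertical axes, each from 0) of the 10 genes in every library of the 4 groups: vehicle (veh) and quizartinib (quiz) in RPMI and in hBMSC-CM (CM). Points are libraries, and the line and bar are the mean and SD of 3. For BCAT1 the 3 quizartinib libraries in RPMI lie between 159.7 and 168.8 CPM, below those in hBMSC-CM (229.0 to 237.3) and the vehicle libraries of both media, and for ALDH6A1 the order is turned round.

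BCAT1, the cytosolic aminotransferase (chr12:24810024-24949101, minus strand, GRCh38), measured 397.7, 421.8 and 412.7 CPM with vehicle in RPMI and 168.8, 159.8 and 159.7 CPM with quizartinib. In hBMSC-CM it measured 397.7, 412.5 and 393.4 CPM with vehicle and 232.9, 237.3 and 229.0 CPM with quizartinib. The vehicle libraries of the media overlapped, the quizartinib libraries lay below them in both media, and those in hBMSC-CM lay above those in RPMI. The log2 fold change with quizartinib was -1.34 (SE 0.042, adjusted p = 2.99e-17) in RPMI and -0.78 (SE 0.041, adjusted p = 9.65e-13) in hBMSC-CM. The difference between these responses was 0.55 on the log2 scale (SE 0.058, adjusted p = 1.08e-07). With quizartinib BCAT1 in hBMSC-CM was 1.43-fold above RPMI (adjusted p = 5.16e-10), and with vehicle the difference was -0.03 on the log2 scale (SE 0.040, adjusted p = 0.558). It remained 1.76-fold lower in quizartinib-treated hBMSC-CM libraries than in RPMI vehicle libraries (adjusted p = 3.66e-13).

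MYC, a transcription factor that binds E-box sequences, was examined beside BCAT1 because its message also fell with quizartinib. Its level was 440.5, 412.8 and 435.0 CPM with vehicle and 47.25, 51.86 and 52.45 CPM with quizartinib in RPMI. In hBMSC-CM it was 786.6, 774.9 and 800.1 CPM with vehicle and 583.3, 584.7 and 616.0 CPM with quizartinib. The quizartinib libraries in hBMSC-CM thus lay above the RPMI vehicle libraries for MYC and below them for BCAT1. Whether BCAT1 follows MYC was not tested.

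The promoters are shown because BCAT1 and MCCC1 were the members whose RefSeq promoter windows held a searched motif. Windows of 250 bases before to 50 after each start were read from RefSeq (GRCh38.p14) for 9 of the 10 genes, 15 windows in all, and BCAT2 had no entry. The search covered the E-box CACGTG, which is its own reverse complement, and the ATF4-type site TTGCATCA or its reverse complement TGATGCAA. These motifs do not overlap in the windows below, and capitals mark them. The first is the BCAT1 window at chr12:24949052-24949351 and the second the MCCC1 window at chr3:183099447-183099746, both on the minus strand and printed 5′ to 3′ along the gene.
BCAT1: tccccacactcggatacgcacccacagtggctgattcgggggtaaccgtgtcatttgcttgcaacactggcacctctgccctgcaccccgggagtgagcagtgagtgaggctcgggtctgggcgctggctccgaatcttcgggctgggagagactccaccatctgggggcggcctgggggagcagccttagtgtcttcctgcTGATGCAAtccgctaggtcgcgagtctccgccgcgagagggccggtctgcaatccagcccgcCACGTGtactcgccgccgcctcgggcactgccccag
MCCC1: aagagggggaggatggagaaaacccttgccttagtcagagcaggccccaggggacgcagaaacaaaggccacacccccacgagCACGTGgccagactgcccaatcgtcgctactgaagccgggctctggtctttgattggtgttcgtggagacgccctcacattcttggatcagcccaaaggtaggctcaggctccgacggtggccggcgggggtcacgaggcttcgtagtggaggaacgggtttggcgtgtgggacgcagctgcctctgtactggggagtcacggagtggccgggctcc

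In the BCAT1 window, 1 of 5 for this gene, the site TGATGCAA began 48 bases upstream of the start and CACGTG began 14 bases downstream. In the MCCC1 window, 1 of 3, CACGTG began 167 bases upstream, and an overlapping window at another start held the same site 76 bases upstream. Over 35116 RefSeq promoter windows of this length, 7.26% held CACGTG, 0.866% held the ATF4-type site, and 22 (0.0626%) held both. Of the 15 windows of the members, 3 held CACGTG and 1 held the ATF4-type site. The printed windows were picked for their motifs, so these shares do not measure how unusual they are. BCAT1 fell and MCCC1 rose with quizartinib, so the 2 genes with an E-box in a window took opposite directions. The data say nothing of which start was used, and the motif matches are descriptions of these letters only.

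BCAT2, the mitochondrial aminotransferase (chr19:48795062-48811029, minus strand), lay higher in hBMSC-CM under both treatments. It measured 32.79, 29.69 and 28.03 CPM with vehicle and 16.29, 18.42 and 19.49 CPM with quizartinib in RPMI. With hBMSC-CM the values were 36.61, 36.75 and 35.83 CPM with vehicle and 26.88, 22.87 and 24.28 CPM with quizartinib. No group overlapped another, and RPMI with quizartinib was the lowest. The quizartinib response was -0.75 (SE 0.076, adjusted p = 1.06e-08) in RPMI and -0.56 (SE 0.072, adjusted p = 9.07e-07) in hBMSC-CM on the log2 scale. Their difference of 0.19 (SE 0.11) did not pass the test (adjusted p = 0.146). BCAT2 in hBMSC-CM was 1.37-fold above RPMI with quizartinib (adjusted p = 2.37e-05) and 1.20-fold higher with vehicle (adjusted p = 0.00635).

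Levels of different genes were compared as CPM per kilobase of the Ensembl canonical transcript. The mean over the 12 libraries was 32.4 CPM per kilobase for BCAT1 and 17.5 for BCAT2. Within libraries the ratio of BCAT1 to BCAT2 was 2.29 with vehicle and 1.52 with quizartinib in RPMI, while in hBMSC-CM these were 1.85 and 1.59. With the length of all annotated exons in place of the canonical transcript these ratios were 5.44, 3.6, 4.4 and 3.78, so their size depends on the length chosen, but the changes between groups do not. The log2 ratio with quizartinib minus that with vehicle was -0.60 in RPMI, with no overlap between the groups (exact permutation p = 0.1, two-sided). With groups of 3 libraries 0.1 is the smallest p that the exact permutation test allows, so no ratio could pass 0.05. With quizartinib the ratio in hBMSC-CM and in RPMI overlapped, with a difference of 0.068 on the log2 scale (exact permutation p = 0.6).

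The dehydrogenase complex is built on a core of DBT, the acyl transferase, to which the decarboxylase made of BCKDHA and BCKDHB binds. DBT (chr1:100186919-100249834, minus strand) measured 30.57, 33.25 and 30.20 CPM with vehicle and 59.98, 56.38 and 57.73 CPM with quizartinib in RPMI. In hBMSC-CM the levels were 31.14, 32.29 and 29.09 CPM with vehicle and 42.40, 39.73 and 41.66 CPM with quizartinib. Vehicle libraries of both media overlapped, and the 3 quizartinib libraries in hBMSC-CM lay between them and those in RPMI. DBT rose 1.85-fold in RPMI (log2 fold change 0.89, SE 0.056, adjusted p = 3.77e-12) and 1.34-fold in hBMSC-CM (0.42, SE 0.057, adjusted p = 1.70e-06). The responses differed by -0.47 on the log2 scale (SE 0.080, adjusted p = 6.55e-05), and the log2 response in hBMSC-CM was 47.4% of that in RPMI.

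BCKDHB, the beta subunit of the decarboxylase (chr6:80106647-80346270, plus strand), measured 35.70, 35.64 and 34.07 CPM with vehicle and 42.09, 43.42 and 44.83 CPM with quizartinib in RPMI. The hBMSC-CM libraries measured 31.83, 33.24 and 29.66 CPM with vehicle and 38.19, 35.47 and 35.80 CPM with quizartinib. The quizartinib libraries lay above the vehicle libraries within each medium, and those in hBMSC-CM overlapped the vehicle libraries in RPMI. The log2 fold change was 0.30 (SE 0.055, adjusted p = 3.54e-05) in RPMI and 0.21 (SE 0.057, adjusted p = 0.00268) in hBMSC-CM, and their difference of -0.09 (SE 0.079) did not pass the test (adjusted p = 0.355). With vehicle the difference of BCKDHB between hBMSC-CM and RPMI was -0.16 on the log2 scale (SE 0.057, adjusted p = 0.0408). That call was lost without any 1 of RPMI vehicle replicates 1, 2 and 3, RPMI quizartinib replicate 2, hBMSC-CM vehicle replicates 1 and 3, and hBMSC-CM quizartinib replicate 3, where the value lay between -0.18 and -0.12 and the adjusted p reached 0.159.

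BCKDHA, the alpha subunit of the decarboxylase and the one that BCKDK phosphorylates (chr19:41397808-41425002, plus strand), had 12 to 39 counts per library, or 0.601 to 1.51 CPM. Its groups overlapped in all 4 comparisons of 1 medium or 1 treatment. In a fit with no filter on low counts its log2 fold change with quizartinib in RPMI was 0.35 (SE 0.26, adjusted p = 0.325). Per kilobase it measured 0.544 CPM over the 12 libraries, against 10.0 for BCKDHB and 3.74 for DBT. In the GENCODE annotation 1660 of its 2251 exon bases (73.7%) also belong to exons of ENSG00000255730, a protein-coding gene on the same strand. Reads in shared exons can be left uncounted or be given to the other gene, so the level of BCKDHA in this table is uncertain.

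The balance of the subunits was followed within libraries. The ratio of BCKDHB to DBT per kilobase was 3.30 with vehicle and 2.20 with quizartinib in RPMI, while in hBMSC-CM these were 3.01 and 2.6. The libraries of vehicle and quizartinib did not overlap in either medium (exact permutation p = 0.1, the smallest possible). DLD, the dehydrogenase subunit that this complex shares with others, had a log2 fold change of -0.11 (SE 0.044, adjusted p = 0.0218) in RPMI and -0.06 (SE 0.044, adjusted p = 0.230) in hBMSC-CM. The DLD call in RPMI was lost with library size only (-0.03) and with upper-quartile factors (-0.01), and without RPMI vehicle replicate 2 (-0.09) or RPMI quizartinib replicate 3 (-0.09).

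The phosphatase PPM1K had a larger response in RPMI than any of the 9 tested members. It measured 25.71, 26.64 and 25.64 CPM with vehicle and 95.32, 89.06 and 96.17 CPM with quizartinib in RPMI. In hBMSC-CM it measured 25.03, 23.63 and 23.35 CPM with vehicle and 38.89, 39.33 and 41.01 CPM with quizartinib. The RPMI quizartinib libraries stood far above the other 9. PPM1K rose 3.59-fold in RPMI (log2 fold change 1.85, SE 0.051, adjusted p = 4.76e-18) and 1.65-fold in hBMSC-CM (0.72, SE 0.055, adjusted p = 2.94e-10). Between the media the response differed by -1.12 on the log2 scale (SE 0.075, adjusted p = 1.06e-10), with 39.2% of the RPMI response seen in hBMSC-CM.

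The kinase BCKDK changed the other way and by less. It measured 43.22, 37.48 and 42.83 CPM with vehicle and 31.97, 33.48 and 34.24 CPM with quizartinib in RPMI, and the groups did not overlap. Levels in hBMSC-CM were 48.81, 43.56 and 45.89 CPM with vehicle and 42.40, 38.67 and 39.93 CPM with quizartinib. Its log2 fold change was -0.31 (SE 0.063, adjusted p = 0.000144) in RPMI and -0.19 (SE 0.062, adjusted p = 0.00955) in hBMSC-CM. The call in hBMSC-CM was lost with library size only (-0.09) and with upper-quartile factors (-0.11), and without hBMSC-CM vehicle replicate 1 (-0.15) or hBMSC-CM quizartinib replicate 2 (-0.16). The ratio of BCKDK to PPM1K per kilobase was 4.90 with vehicle and 1.10 with quizartinib in RPMI, while in hBMSC-CM these were 5.95 and 3.14. None of these 4 groups overlapped another within a medium or a treatment (exact permutation p = 0.1 for each comparison, the smallest possible). SLC25A44, which carries branched-chain amino acids into the mitochondrion, had log2 fold changes of -0.06 (SE 0.061, adjusted p = 0.332) in RPMI and -0.11 (SE 0.062, adjusted p = 0.116) in hBMSC-CM. It passed in RPMI with no filter on low counts (-0.17, adjusted p = 0.0189) and in hBMSC-CM without hBMSC-CM vehicle replicate 3 (-0.17, adjusted p = 0.0171).

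**Figure D2:**
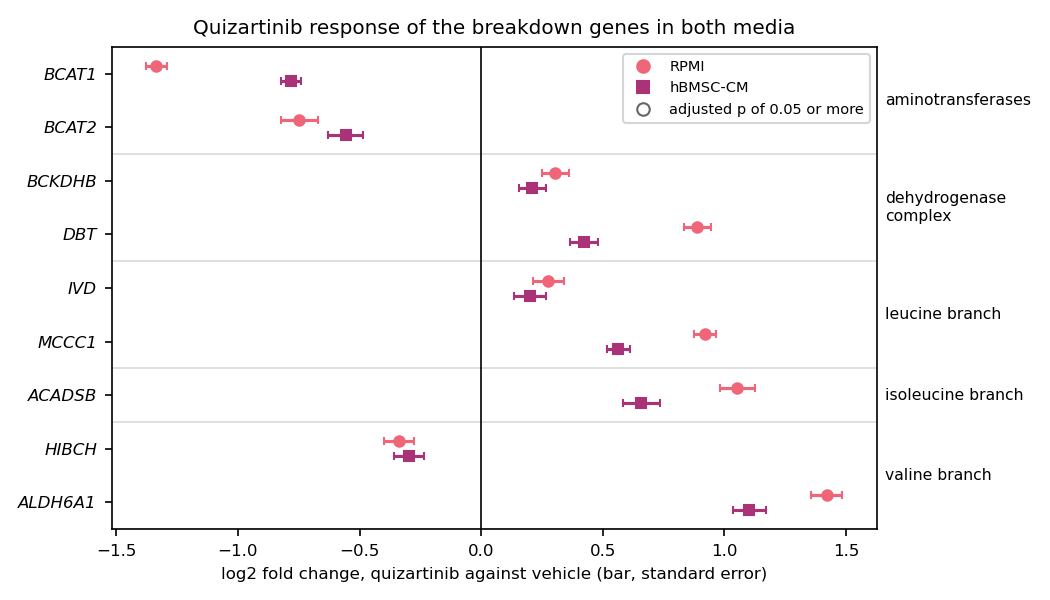
Log2 fold change of quizartinib against vehicle (horizontal axis; bars are standard errors) for the 9 tested genes in RPMI (circles) and hBMSC-CM (squares), ordered by step. Filled symbols passed an adjusted p of 0.05, as did all 18 values. In hBMSC-CM each symbol lies nearer to 0 than in RPMI, with BCAT1 at -1.34 and -0.78 and ALDH6A1 at 1.42 and 1.10. How many of all tested genes share this was not counted.

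In the leucine branch IVD, isovaleryl-CoA dehydrogenase (chr15:40405485-40435947, plus strand), measured 98.17, 83.52 and 96.13 CPM with vehicle and 112.3, 113.1 and 110.8 CPM with quizartinib in RPMI. In hBMSC-CM the values were 89.68, 90.06 and 74.22 CPM with vehicle and 94.40, 97.10 and 101.0 CPM with quizartinib. Vehicle and quizartinib libraries did not overlap within a medium, but RPMI vehicle replicate 2 and hBMSC-CM vehicle replicate 3 lay below the others of their groups. IVD rose by 0.28 (SE 0.064, adjusted p = 0.000508) in RPMI and by 0.20 (SE 0.065, adjusted p = 0.00960) in hBMSC-CM on the log2 scale. Without hBMSC-CM vehicle replicate 3 the value in hBMSC-CM was 0.12 and no longer passed (adjusted p = 0.0701). The responses in the media differed by -0.07 (SE 0.091, adjusted p = 0.536).

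MCCC1, the biotin-carrying alpha subunit of methylcrotonyl-CoA carboxylase and the next enzyme of leucine breakdown (chr3:183015218-183116075, minus strand), moved more than IVD. It measured 58.85, 62.82 and 59.20 CPM with vehicle and 116.8, 112.7 and 112.9 CPM with quizartinib in RPMI. The hBMSC-CM libraries held 53.50, 58.72 and 57.04 CPM with vehicle and 82.13, 84.19 and 83.51 CPM with quizartinib. No group overlapped another, and the hBMSC-CM quizartinib libraries lay between the RPMI groups. MCCC1 rose 1.89-fold in RPMI (log2 fold change 0.92, SE 0.044, adjusted p = 4.35e-14) and 1.48-fold in hBMSC-CM (0.56, SE 0.045, adjusted p = 7.84e-10). The media differed in response by -0.36 on the log2 scale (SE 0.063, adjusted p = 0.000103).

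MCCC2, the beta subunit of the carboxylase, fell while MCCC1 rose. It measured 63.63, 60.32 and 62.11 CPM with vehicle and 49.97, 50.72 and 44.83 CPM with quizartinib in RPMI. In hBMSC-CM its levels were 68.80, 65.33 and 65.49 CPM with vehicle and 59.11, 61.59 and 58.72 CPM with quizartinib. Its log2 fold change was -0.35 (SE 0.051, adjusted p = 2.03e-06) in RPMI and -0.16 (SE 0.050, adjusted p = 0.00977) in hBMSC-CM, and the latter call was lost with library size only (-0.05) and with upper-quartile factors (-0.07). The ratio of MCCC1 to MCCC2, examined after these values were seen, was 1.44 with vehicle and 3.48 with quizartinib in RPMI, while in hBMSC-CM these were 1.25 and 2.06. Its groups did not overlap within either medium (exact permutation p = 0.1, the smallest possible). Propionyl-CoA carboxylase, a biotin enzyme of the isoleucine and valine branches, was then examined in the same way. Its alpha subunit PCCA had a log2 fold change of 0.81 (SE 0.065, adjusted p = 2.78e-10) and its beta subunit PCCB one of -0.06 (SE 0.061, adjusted p = 0.351) in RPMI. The ratio of PCCA to PCCB was 0.539 with vehicle and 0.986 with quizartinib in RPMI, while in hBMSC-CM these were 0.52 and 0.85. With the length of all annotated exons the RPMI ratios were 0.766 and 1.4 for PCCA to PCCB. For MCCC1 to MCCC2 they were 4.68 and 11.4. The size of these ratios thus depends on the length chosen, but the changes between groups do not.

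In the isoleucine branch ACADSB, the short/branched-chain acyl-CoA dehydrogenase (chr10:123008979-123058290, plus strand), measured 13.75, 16.31 and 15.26 CPM with vehicle and 32.36, 30.45 and 31.01 CPM with quizartinib in RPMI. The levels in hBMSC-CM were 13.75, 15.77 and 15.19 CPM with vehicle and 24.21, 21.90 and 23.99 CPM with quizartinib. The vehicle libraries of the media overlapped and the quizartinib libraries did not. ACADSB rose 2.08-fold in RPMI (log2 fold change 1.05, SE 0.071, adjusted p = 1.49e-11) and 1.58-fold in hBMSC-CM (0.66, SE 0.075, adjusted p = 1.31e-07). The responses differed by -0.39 on the log2 scale (SE 0.10, adjusted p = 0.00390).

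In the valine branch the 2 members took opposite directions. ALDH6A1, methylmalonate semialdehyde dehydrogenase (chr14:74056847-74084492, minus strand), measured 23.80, 25.15 and 24.85 CPM with vehicle and 69.48, 65.46 and 62.27 CPM with quizartinib in RPMI. In conditioned medium it measured 19.89, 20.43 and 18.51 CPM with vehicle and 45.83, 38.32 and 41.94 CPM with quizartinib. No group overlapped another, and hBMSC-CM lay below RPMI under each treatment. ALDH6A1 rose 2.68-fold in RPMI (log2 fold change 1.42, SE 0.065, adjusted p = 1.68e-14) and 2.15-fold in hBMSC-CM (1.10, SE 0.069, adjusted p = 1.53e-11). The interaction was -0.32 on the log2 scale (SE 0.095, adjusted p = 0.00948). In the annotation 10.0% of its exon bases overlap exons of BBOF1 on the opposite strand, and it is not stated whether the counting used strand.

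HIBCH, the hydrolase of 3-hydroxyisobutyryl-CoA that acts earlier in valine breakdown (chr2:190189735-190344193, minus strand), measured 22.19, 23.20 and 21.53 CPM with vehicle and 17.96, 17.00 and 18.12 CPM with quizartinib in RPMI. Values in hBMSC-CM were 22.69, 22.23 and 22.16 CPM with vehicle and 18.64, 17.73 and 18.23 CPM with quizartinib. The quizartinib libraries lay below the vehicle libraries in both media, and the media overlapped under both treatments. The log2 fold change was -0.34 (SE 0.060, adjusted p = 3.08e-05) in RPMI and -0.30 (SE 0.061, adjusted p = 0.000217) in hBMSC-CM. The difference in response was 0.04 (SE 0.086, adjusted p = 0.730), and HIBCH did not pass the test between the media with quizartinib (0.04, SE 0.062, adjusted p = 0.533) or with vehicle (0.004, SE 0.059, adjusted p = 0.972).

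Between the media, 8 of the 9 genes differed with quizartinib, 2 higher in hBMSC-CM and 6 lower, where 35.5% of all tested genes were called higher and 34.3% lower. The higher genes were both aminotransferases. The lower ones ran from IVD at -0.20 (SE 0.064, adjusted p = 0.00788) and BCKDHB at -0.25 (SE 0.055, adjusted p = 0.000429) through ACADSB at -0.42 (SE 0.068, adjusted p = 1.44e-05), MCCC1 at -0.46 (SE 0.044, adjusted p = 8.11e-09) and DBT at -0.49 (SE 0.054, adjusted p = 7.75e-08) to ALDH6A1 at -0.64 (SE 0.062, adjusted p = 8.63e-09). The median log2 fold change was -0.25 over the 9 genes and 0.002 over all genes. With vehicle 1 gene (BCAT2) was higher in hBMSC-CM and 2 (BCKDHB and ALDH6A1, the latter at -0.33 with SE 0.072 and adjusted p = 0.00154) were lower, against 16.6% of all genes higher and 15.5% lower. The other 6 did not pass the test.

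The interaction asks whether the quizartinib response differed between the media. It was called for 1 of the 9 genes in the positive direction (BCAT1) and for 4 in the negative direction (DBT, ACADSB, MCCC1 and ALDH6A1), against 26.1% and 19.2% of all tested genes. For BCAT1, whose response was a fall, and for the other 4, whose response was a rise, the sign means a smaller change in hBMSC-CM. The log2 response in hBMSC-CM ran from 47.4% of that in RPMI for DBT, through 58.7% for BCAT1, 61.3% for MCCC1 and 62.5% for ACADSB, to 77.6% for ALDH6A1. These comparisons share libraries, so the values of a gene in the 2 media contrasts and the 2 drug contrasts are not independent of each other.

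In the order of mean group levels, hBMSC-CM with quizartinib was a middle group for each tested gene. The share of all genes was not counted, so this place in the order cannot be called particular to these genes. For HIBCH the hBMSC-CM quizartinib mean of 18.2 CPM did not pass the test against 17.69 CPM with quizartinib in RPMI (adjusted p = 0.533). The hBMSC-CM quizartinib group was compared directly with vehicle in RPMI, where 30.6% of all tested genes were called higher and 31.6% lower. Of the 9 genes, 4 were higher (DBT, MCCC1, ACADSB and ALDH6A1), 3 were lower (BCAT1, BCAT2 and HIBCH) and 2 did not pass, BCKDHB (log2 difference 0.06, SE 0.056, adjusted p = 0.403) and IVD (0.07, SE 0.064, adjusted p = 0.332). ALDH6A1 was 1.71-fold higher there than with vehicle in RPMI (adjusted p = 2.26e-09). The vehicle groups were neighbours whose libraries overlapped and whose difference did not pass the test for BCAT1, DBT, IVD, ACADSB and HIBCH. For MCCC1 they did not overlap, and the difference of -0.10 (SE 0.046) did not pass after adjustment (adjusted p = 0.109).

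**Figure D3:**
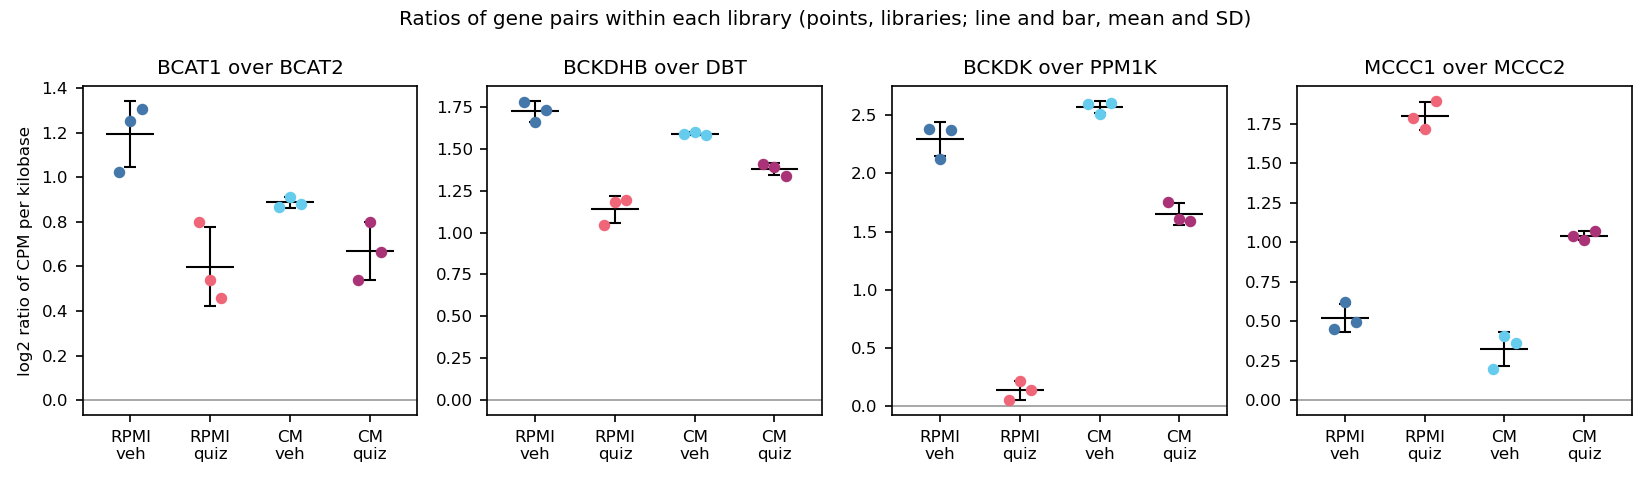
Log2 ratio of CPM per kilobase within each library (vertical axes) for BCAT1 over BCAT2, BCKDHB over DBT, BCKDK over PPM1K and MCCC1 over MCCC2, in vehicle (veh) and quizartinib (quiz) libraries of RPMI and hBMSC-CM (CM). Points are libraries, the black line and bar are the mean and SD of 3, and the grey line marks equal levels per kilobase of the canonical transcript. Where a ratio lies against that line depends on the length chosen. The mean log2 ratio of BCKDK over PPM1K is 2.29 with vehicle and 0.14 with quizartinib in RPMI, while in hBMSC-CM these were 2.57 and 1.65.

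Over the 13 other breakdown enzymes, quizartinib in RPMI raised 5, lowered 5 and left 3 without a call, with a median log2 fold change of -0.06. Of all tested genes 40.1% were called higher and 39.2% lower in that comparison. The lowest was HSD17B10, a dehydrogenase of the isoleucine branch, at -0.52 (SE 0.059, adjusted p = 5.78e-08). In hBMSC-CM 3 of the 13 rose, 5 fell and 5 had no call, with HSD17B10 at -0.30 (SE 0.058, adjusted p = 0.000113). There 33.4% of all tested genes were called higher and 33.7% lower. In the comparison of hBMSC-CM against RPMI with quizartinib, 5 of the 13 were higher and 5 lower, against 35.5% and 34.3% of all tested genes. With vehicle 2 were higher and none was lower, against 16.6% and 15.5% of all tested genes. The interaction was called for 2 in the positive direction (MCCC2 and HSD17B10) and 4 in the negative, against 26.1% and 19.2% of all tested genes. Neither positive call held in the DESeq2 Wald test, without RPMI vehicle replicate 1 or without hBMSC-CM vehicle replicate 2. The HSD17B10 value of 0.22 (SE 0.082, adjusted p = 0.0355) also lost its call with upper-quartile factors and without RPMI quizartinib replicates 1 or 2, hBMSC-CM vehicle replicate 1 or hBMSC-CM quizartinib replicate 1, and lay between 0.16 and 0.23 where the call was lost. These enzymes did not share one direction.

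Of the 5 plasma membrane carriers of these amino acids 4 were tested, and SLC7A8 did not pass the filter. In RPMI quizartinib lowered 3 and raised 1, and in hBMSC-CM it did so for 3 and 1 as well. Of all tested genes 39.2% were called lower and 40.1% higher in RPMI, and 33.7% and 33.4% in hBMSC-CM. SLC7A5, the transport subunit of the main leucine carrier, measured 322.7, 313.9 and 326.5 CPM with vehicle and 29.10, 29.72 and 32.62 CPM with quizartinib in RPMI. Its log2 fold change was -3.40 (SE 0.054, adjusted p = 2.24e-21) in RPMI and -1.58 (SE 0.048, adjusted p = 2.60e-16) in hBMSC-CM. SLC43A2, another carrier of neutral amino acids, rose by 1.31 (SE 0.052, adjusted p = 1.65e-15) in RPMI and by 0.76 (SE 0.050, adjusted p = 2.91e-11) in hBMSC-CM on the log2 scale. Under quizartinib hBMSC-CM gave the higher level for all 4, where 35.5% of all tested genes were called higher. With vehicle 3 of the 4 were also called higher in hBMSC-CM, against 16.6% of all tested genes, and none was called lower. SLC43A2 averaged 45.0 CPM in RPMI and 80.4 CPM in hBMSC-CM with vehicle, and 112.0 and 136.5 CPM with quizartinib.

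**Figure D4:**
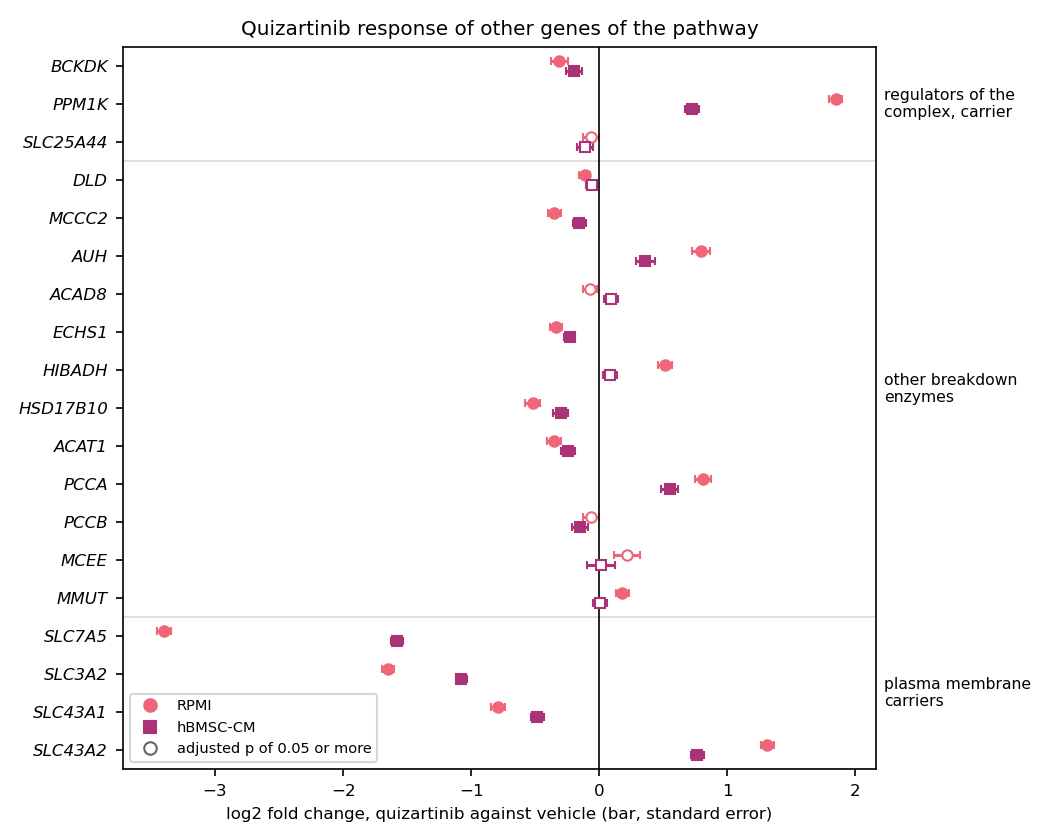
Log2 fold change of quizartinib against vehicle (horizontal axis; bars are standard errors) in RPMI (circles) and hBMSC-CM (squares) for the regulators of the complex with the mitochondrial carrier, 12 of the 13 other breakdown enzymes and the 4 tested plasma membrane carriers. Open symbols did not pass an adjusted p of 0.05. PPM1K at 1.85 and SLC7A5 at -3.40 mark the ends of the range in RPMI, and MCCC2 lies below 0 in both media.

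Patterns over the 12 libraries were compared as Pearson's r of log2(CPM + 1) among the 9287 tested genes averaging 10 CPM or more. The gene most like BCAT1 was ATAD2 (r = 0.9991), followed by USP1 (r = 0.9984). The nearest to DBT was RB1CC1 (0.9968), to ALDH6A1 NCAM2 (0.9975), to MCCC1 PCMTD2 (0.9969) and to ACADSB ADD3 (0.9914). DDB1 was nearest to BCAT2 (0.9908), C11ORF68 to BCKDHB (0.9899), RAD18 to HIBCH (0.9884) and PI4KA to IVD (0.9789). Among the members and their regulators DBT had r = 0.987 with MCCC1 and 0.986 with PPM1K, and BCAT1 had r = -0.982 with MCCC1. The 12 points fall into 4 groups, so these values describe the order of the groups more than variation between libraries.

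Total counts per library were 19966546 to 31546104, and 3 counts, the limit that a count of 0 allows, equal 0.0951 to 0.150 CPM, for counting error only. All 7 AML marker genes were present, with summed levels of 1058 to 1106 CPM (vehicle) and 1739 to 1773 CPM (quizartinib) in RPMI, and 1183 to 1211 CPM and 1922 to 2068 CPM in hBMSC-CM. The markers did not move together. In RPMI the means of PTPRC, FLT3, SPI1, LYZ and MEIS1 rose, CD33 went from 92.5 to 76.0 CPM and HOXA9 from 23.7 to 23.3 CPM. In hBMSC-CM the mean of LYZ alone went from 503.4 to 1010 CPM. Of 12 stromal markers 3 passed the filter (COL1A1, TAGLN and FBN1), and COL3A1, COL5A1, LUM, DCN, POSTN and THY1 had no count. In RPMI, where no stromal medium was used, COL1A1 averaged 0.18 CPM with vehicle and 4.61 CPM with quizartinib. TAGLN averaged 2.55 and 6.19 CPM there, and FBN1 3.00 and 2.38 CPM. In hBMSC-CM the averages were 0.22 and 0.99 CPM for COL1A1, 2.40 and 4.39 CPM for TAGLN, and 2.97 and 2.80 CPM for FBN1. The levels summed over all 12 were 6.57 to 7.47 and 13.3 to 15.6 CPM in RPMI and 6.07 to 7.45 and 8.94 to 9.83 CPM in hBMSC-CM. Mitochondrially encoded genes took 0.683% to 0.790% and 1.02% to 1.10% in RPMI and 0.458% to 0.614% and 0.683% to 0.947% in hBMSC-CM of all counts, in the same order. These measures moved with quizartinib, and their part in the results on the breakdown genes was not tested.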

How the data were processed

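RNA-seq of 12 MOLM-13 libraries was analysed from raw counts per gene. Per the labels and the study's methods, the authors trimmed and aligned reads to the human genome (hg38) and counted them with STAR (2.6.0a in the submitters' processing notes), added up Ensembl identifiers that share a name, and deposited whole-number counts without normalization. Whether strand was used is not given in the sources used here, so overlapping genes are uncertain. The study's filter was applied (raw count and CPM each averaging 1 or more), which left 12998 of 30572 genes with a count. Counts were tested with edgeR 4.0.16 (glmQLFit, glmQLFTest) in R 4.3.3, with TMM factors and 4 group means over all 12 libraries. The SE, or standard error, of a log2 fold change was its absolute value divided by the square root of the quasi-likelihood F statistic. P-values were two-sided, adjusted by the Benjamini-Hochberg method over all tested genes, and called under 0.05. Ratios within libraries were tested with exact two-sided permutation tests.

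All 10 genes and the pathway lists were described, with values for BCKDK, PPM1K, SLC25A44, MCCC2, DLD and the extremes of each list in RPMI, except for 1 gene that is counted in its list but not reported here. The genes and lists were chosen with earlier results of these data known. The MCCC1 to MCCC2 and PCCA to PCCB ratios were chosen after their values were seen. Gene positions and lengths came from GENCODE v44 by name, with the canonical transcript for lengths, and promoters from RefSeq. Depth was 19966546 to 31546104 counts per library. Replicates of a group differed by more than sampling noise (chi-square per gene 2.66 to 10.5). Alternatives were DESeq2 size factors, library size only, upper-quartile factors, no filter, filterByExpr, the DESeq2 1.42.0 Wald test, limma-voom (limma 3.58.1), the replicate number as a block, only the groups compared, and each library left out. The script was tested on simulated data.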

Additional observations from a re-analysis of the deposited data

Results flagged for a closer look

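The quizartinib response differed between RPMI and hBMSC-CM, by edgeR's test of the difference itself, for 5 of the 9 tested breakdown genes and for 2 of 5 named partners (BCKDK, PPM1K, SLC25A44, MCCC2 and DLD). Over all 12998 tested genes 45.2% were called for this difference. The difference, as the response in hBMSC-CM minus that in RPMI on the log2 scale, was 0.55 for BCAT1 (adjusted p = 1.08e-07), -0.47 for DBT (adjusted p = 6.55e-05), -0.36 for MCCC1 (adjusted p = 0.000103), -0.39 for ACADSB (adjusted p = 0.00390) and -0.32 for ALDH6A1 (adjusted p = 0.00948). It was -1.12 for the phosphatase PPM1K (adjusted p = 1.06e-10) and 0.20 for MCCC2, the beta subunit that pairs with MCCC1 (adjusted p = 0.0301). Each of the 7 responses was closer to 0 in hBMSC-CM. These 7 were picked for passing this test, and how many of all genes called for it also lay closer to 0 was not counted. The MCCC2 call was lost without any 1 of RPMI vehicle replicates 1 (0.18) and 3 (0.20), RPMI quizartinib replicate 3 (0.14), hBMSC-CM vehicle replicate 2 (0.19) and hBMSC-CM quizartinib replicate 2 (0.18), and in the DESeq2 Wald test (0.19).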

How the results depend on the processing

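Of the 9 tested genes, 9 were called for quizartinib in RPMI and 8 between the media with quizartinib under every alternative run. For quizartinib in hBMSC-CM 9 were called, or 8 without hBMSC-CM vehicle replicate 3. Between the media with vehicle 2 to 4 were called, and for the interaction 5, or 6 with no filter on low counts (BCAT2, 0.26, adjusted p = 0.0437). In the main run 79.3% of all tested genes were called for quizartinib in RPMI and 67.1% in hBMSC-CM. The shares were 69.8% between the media with quizartinib, 32.1% between them with vehicle and 45.2% for the interaction. With no filter on low counts these 5 shares were 40.1%, 30.4%, 33.0%, 13.5% and 18.7%. MCCC1 passed between the media with vehicle under upper-quartile factors (-0.13, adjusted p = 0.0416), and IVD without RPMI vehicle replicate 2 (-0.20, adjusted p = 0.0275). Upper-quartile factors raised the median of all genes by 0.10 for quizartinib in RPMI (0.1015) and library size only raised it by 0.10 in hBMSC-CM (0.1036), and the members' values moved with it. Sign changes were limited to values near 0 with no call, and their cause was not tested. With library size only and upper-quartile factors HIBCH between the media with vehicle was -0.0138 and -0.0234 (-0.0003 with only the groups compared), SLC25A44 in RPMI was 0.0241 and 0.0367, DLD in hBMSC-CM was 0.0443 and 0.0223, and DLD between the media with vehicle was -0.0133 and -0.0226. HIBCH between the media with quizartinib was -0.0019 with upper-quartile factors, and the SLC25A44 interaction was 0.0239 with no filter. With 1 library left out, the difference between the media with vehicle lay between -0.0548 and 0.0211 for DBT, -0.0932 and 0.0393 for ACADSB, -0.0194 and 0.0324 for HIBCH and -0.0201 and 0.0295 for DLD. The difference in the BCAT1 to BCAT2 log2 ratio between the media with quizartinib lay between -0.002 and 0.167, the lowest without RPMI quizartinib replicate 3, and that in the PCCA to PCCB ratio with vehicle between -0.138 and 0.079, above 0 without hBMSC-CM vehicle replicate 3 or RPMI vehicle replicate 3. Replicate numbers did not pair the libraries, since correlations of same-numbered deviations were -0.297 to 0.138 over 18 pairs and 0 of 12 libraries correlated best with their own number. With the replicate number as a block 9, 9, 8, 2 and 5 genes were called in the 5 comparisons, the BCKDHB call between the media with vehicle being lost (-0.16), as it was with no filter, filterByExpr and the DESeq2 Wald test (all -0.15). The shares of all tested genes called with the block were 78.7%, 66.2%, 68.9%, 30.4% and 43.7% in the same order. The block changed no other member's call. BCKDHA could not be judged at its depth of 12 to 39 counts.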
